A study of Mus musculus with 4 samples.

Results

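The respiratory chain genes described here are the genes of the authors' deposited table whose symbols name a mitochondrially encoded gene, a subunit or assembly factor of complexes I to V, or cytochrome c, with pseudogene symbols ending in -ps left out and a mean level of at least 1 over the 4 samples. They number 35 of the 5282 genes listed. 13 lie on mitochondrial DNA, of which 11 are messages and 2 are ribosomal RNAs, and 22 are counted as nuclear. The level minimum removed none, since the lowest member, Cox6b2, had a mean level of 7.65. The samples were bulk RNA of corpus callosum and cortex at postnatal day 15. 2 came from Pdgfra-creER;SmoM2 mice (SmoM2) and 2 from wild type mice (WT), and all 4 received tamoxifen from day 5 to day 7. SmoM2 is a constitutively active Smoothened, the protein that relays the hedgehog signal, and Pdgfra-creER confines recombination to cells with Pdgfra promoter activity, which in brain include oligodendrocyte precursors and leptomeningeal fibroblasts. The labels do not say whether the samples were separate animals, whether animals were pooled, or which transgene components the WT mice carried, so the p-values measure the spread between these samples.

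The respiratory chain of the inner mitochondrial membrane moves electrons from NADH and succinate through complexes I to IV to oxygen and pumps protons, and complex V (ATP synthase) lets the protons back to make ATP. Mitochondrial DNA encodes a small set of core subunits and the organelle's own ribosomal RNAs, transcribed as long RNAs from both strands and then cut. The other subunits and the factors that assemble the complexes are encoded in the nucleus and imported.

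Of the 13 mitochondrial protein-coding genes of the GENCODE M21 annotation, 11 had a row; mt-Co3 and mt-Nd4l were not analysed here, nor were the 22 mitochondrial tRNAs. By name, 107 nuclear protein-coding genes of the annotation meet the rule and 19 of them had a row. The other 3 nuclear members are outside these 107. Atp5md is named Usmg5 there, Ndufb1 is named Ndufb1-ps and typed as a bidirectional promoter lncRNA, and Ndufb4c is typed as a processed pseudogene. By complex, rows were available for 5 of 36 nuclear genes of complex I, 0 of 4 of complex II, 3 of 9 of complex III, 4 of 20 of complex IV, 4 of 16 of complex V, 3 of 21 assembly factors and 0 of 1 for cytochrome c. The authors listed a gene at an unadjusted p of at most 0.05, so the 35 members are a selected fraction of the chain, and the level of the 88 genes without a row is not known here. Levels are the authors' normalised values with 2 decimals, whether TPM or FPKM not being stated, and read depth is not known. The summed level of all listed genes was between 469062 and 512833 per sample. Smo itself had levels of 10.7 and 11.0 in SmoM2 and 7.12 and 5.75 in WT.

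Mitochondrial genes overlap each other and have near-identical relatives in the nuclear genome, and sequences that bear on how their reads can be assigned are given first. They are read from GENCODE M21 transcripts (GRCm38) and run 5′ to 3′. The reading frames of mt-Atp8 and mt-Atp6 share 43 bases, shown in capitals with 20 bases on either side (chrM:7907-7989, plus strand), so a read within the capitals can come from either.

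mt-Atp8 and mt-Atp6: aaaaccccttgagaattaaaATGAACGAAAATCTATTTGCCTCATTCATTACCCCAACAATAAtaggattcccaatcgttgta

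The last 40 bases of mt-Nd5 (chrM:13526-13565, plus strand) and of mt-Nd6 (chrM:13552-13591, minus strand) end in the same 14 base pairs read from opposite strands, shown in capitals. The sources used here do not say whether reads were counted by strand.

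mt-Nd5: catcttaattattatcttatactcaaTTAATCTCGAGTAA

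mt-Nd6: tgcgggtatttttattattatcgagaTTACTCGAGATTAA

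A stretch of mitochondrial DNA is also present on chromosome 1, where the annotation names its pieces as separate genes. Compared at no less than 99% identity over at least 250 bases, Gm28661 matched mt-Co2 over 681 bases with 0 mismatches and Gm10925 matched mt-Atp6 over 678 bases with 0 mismatches. The stretches of mt-Co2 (chrM:7634-7693, plus strand) and Gm28661 (chr1:24614885-24614944, minus strand) below are shown because mt-Co2 was the mitochondrial gene called higher, and no base differs between them.

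mt-Co2: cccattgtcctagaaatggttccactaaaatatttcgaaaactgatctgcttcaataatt

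Gm28661: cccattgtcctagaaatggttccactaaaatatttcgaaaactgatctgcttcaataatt

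Gm28438 matched mt-Nd3 over 345 bases with 1 difference, T3C, in which the base of mt-Nd3 stands first, then its position counted from 1 at the 5′ end of the gene, then the base of the copy. It is in capitals in the starts of mt-Nd3 (chrM:9459-9491, plus strand) and of Gm28438 (chr1:24613087-24613119, minus strand), after which the longest identical run is 342 bases.

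mt-Nd3: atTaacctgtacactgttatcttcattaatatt

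Gm28438: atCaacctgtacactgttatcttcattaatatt

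Gm29216 matched the later part of mt-Co1. Differences were T1056A, C1057T, A1059G, A1060G, C1062A and A1066T, counted along mt-Co1 and set in capitals in mt-Co1 (chrM:6381-6423, plus strand) and Gm29216 (chr1:24616155-24616197, minus strand), and 479 identical bases followed.

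mt-Co1: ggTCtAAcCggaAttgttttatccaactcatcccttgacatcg

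Gm29216: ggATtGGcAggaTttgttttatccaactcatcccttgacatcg

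Messages and ribosomal RNAs of mitochondrial DNA were lower in SmoM2 for 11 of the 13 members, and these 11 fell by the authors' test. mt-Co2 rose, and mt-Nd3 did not pass. Among the 4845 listed genes whose mean level reached 1, 38.9% passed the authors' threshold (adjusted p of 0.05 or less), 16.9% as lower and 22.0% as higher. In the authors' deposited table the 13 ran from -0.97 to 0.40 in log2 fold change (median -0.64), and the median of all those listed genes was 0.23. Levels of the SmoM2 and WT samples did not overlap for 12 of the 13, and 85.0% of listed genes likewise had groups that did not overlap.

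In bulk tissue, fewer cells of a type and less RNA per cell cannot be told apart, and several marker sums moved with the mitochondrial levels. All 11 mature oligodendrocyte markers fell, and their summed level was 3055 and 3442 in SmoM2 and 6395 and 6006 in WT. 7 of 10 choroid plexus markers had a row and fell, with sums of 150 and 724 against 1364 and 1399, and all 6 red blood cell markers fell, with 65.6 and 120 against 662 and 450. All 7 leptomeningeal fibroblast markers with a row of 8 rose, with 1735 and 1811 against 978 and 348. Single genes weighed heavily in 2 of these sums. Ttr alone had 71.2 and 618 in SmoM2 and 1203 and 1162 in WT in the choroid plexus sum. Ptgds alone had 1641 and 1728 in SmoM2 and 933 and 313 in WT in the fibroblast sum. Sums were also higher in SmoM2 without overlap for mural cells (134 and 112 against 72.3 and 55.0, 3 of 4 markers with a row rose), microglia (420 and 388 against 307 and 310, 2 of 6 rose and 1 fell) and oligodendrocyte precursors (173 and 159 against 129 and 139, 2 of 5 rose and 1 fell). 6 of 13 neuron and 5 of 8 astrocyte markers had a row, and of these 4 and 3 passed. Neuron markers summed to 4048 and 4134 in SmoM2 and 3625 and 4058 in WT, which overlap, and astrocyte markers to 1276 and 1191 against 1402 and 1282. Of 7 endothelial markers 6 had a row, of which 3 rose and 2 fell. Their sums of 271 and 191 in SmoM2 and 261 and 220 in WT overlap. Of 5 ependymal markers 1 had a row, and it did not pass. The part of cell composition in the mitochondrial result was not tested.

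mt-Rnr1, the ribosomal RNA of the small mitochondrial ribosomal subunit, had levels of 2635 and 2550 in SmoM2 replicates 1 and 2 and of 5604 and 4025 in WT replicates 1 and 2. mt-Rnr2, that of the large subunit, had 1780 and 1569 in SmoM2 and 3441 and 2699 in WT. Both WT samples were above both SmoM2 samples for each, and WT 1 was the highest. In the authors' deposited table the log2 fold change was -0.97 for mt-Rnr1 (adjusted p = 8.65e-30) and -0.95 for mt-Rnr2 (adjusted p = 1.53e-30). The recalculated log2 differences, from limma on log2(level + 1), were -0.87 ± 0.17 for mt-Rnr1 and -0.87 ± 0.15 for mt-Rnr2 (SE). The ratio of mt-Rnr2 to mt-Rnr1 was 0.675 and 0.615 in SmoM2 and 0.614 and 0.671 in WT, ranges that overlap.

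The mitochondrial subunits of complex I form part of its proton-pumping membrane arm, and 5 of the 6 with a row fell. mt-Nd1 had levels of 7458 and 5935 in SmoM2 and 11449 and 10120 in WT. mt-Nd2 had 3484 and 2892 in SmoM2 and 4729 and 4484 in WT. mt-Nd4 had 4280 and 2958 in SmoM2 and 5861 and 5740 in WT. In each case the higher SmoM2 sample was replicate 1 and lay below both WT samples. mt-Nd5 had 2001 and 1302 in SmoM2 and 2341 and 2571 in WT. mt-Nd6, the one protein-coding gene read from the other strand of mitochondrial DNA, had 2414 and 1771 in SmoM2 and 3349 and 3802 in WT. The ratio of mt-Nd6 to mt-Nd5, which share the end shown above, was 1.21 and 1.36 in SmoM2 and 1.43 and 1.48 in WT. Both genes were thus lower in SmoM2 in each sample, and their ratio was also lower in each SmoM2 sample.

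Log2 fold changes in the authors' deposited table were -0.76 for mt-Nd1 (adjusted p = 7.07e-23), -0.60 for mt-Nd2 (1.05e-11), -0.75 for mt-Nd4 (9.93e-22), -0.64 for mt-Nd5 (9.21e-14) and -0.84 for mt-Nd6 (1.20e-15). The limma differences were -0.69 ± 0.16, -0.54 ± 0.13, -0.70 ± 0.19, -0.60 ± 0.21 and -0.79 ± 0.17 in the same order. Single libraries moved 2 of these. Without SmoM2 replicate 2 the difference was -0.44 for mt-Nd4 and -0.29 for mt-Nd5, and without SmoM2 replicate 1 it was -0.91 for mt-Nd5.

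mt-Cytb, the cytochrome b of complex III, had levels of 7553 and 5628 in SmoM2 and 8830 and 9323 in WT. mt-Co1, the catalytic subunit of complex IV, had 17638 and 14947 in SmoM2 and 22883 and 22322 in WT. Neither overlapped between groups, and SmoM2 replicate 2 was the lowest sample for both. Both fell. The authors' deposited table gives log2 fold changes of -0.53 (adjusted p = 2.25e-11) and -0.55 (adjusted p = 1.97e-17), beside limma differences of -0.48 ± 0.17 and -0.48 ± 0.16. Without SmoM2 replicate 2 the difference of mt-Cytb was -0.26. Quantile normalization gives genes of the same rank the same value in each sample by construction, which bears on the highest members. Under it the direction turned for mt-Cytb, to 0.073, and for mt-Co1, to 0.047, while the difference came to 0 for mt-Atp8 and to -0.073 for mt-Nd1.

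mt-Atp6 and mt-Atp8 encode membrane subunits of complex V and lie on 1 message. mt-Atp6 had levels of 1390 and 949 in SmoM2 and 1880 and 1632 in WT. mt-Atp8 had 26568 and 19185 in SmoM2 and 31989 and 38466 in WT. Both fell without overlap. The authors' deposited table gives log2 fold changes of -0.65 (adjusted p = 3.67e-09) and -0.43 (adjusted p = 0.00390), beside limma differences of -0.61 ± 0.19 and -0.64 ± 0.22. Without SmoM2 replicate 2 these were -0.33 for mt-Atp6 and -0.40 for mt-Atp8. The level of mt-Atp8 was 19.1 and 20.2 times that of mt-Atp6 in SmoM2 and 17.01 and 23.6 times in WT. This ratio leaves out Gm10925, the chromosome 1 copy of mt-Atp6. With that copy added, weighted by length, the level of mt-Atp6 was 11623 and 7895 in SmoM2 and 15599 and 16222 in WT. The size of the ratio thus depends on how reads were divided between mt-Atp6 and its copy.

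mt-Co2 and mt-Nd3 stood apart from the rest. mt-Co2, the complex IV subunit that takes electrons from cytochrome c, had levels of 874 and 973 in SmoM2 and 595 and 744 in WT. It rose (log2 fold change 0.40, adjusted p = 0.00524, the authors' deposited table), and the limma difference was 0.47 ± 0.13, or 0.31 without WT replicate 1. mt-Nd3, a subunit of complex I, had 753 and 335 in SmoM2 beside 529 and 284 in WT. The groups overlapped, and both replicates 1 were the higher of their group. It did not pass (log2 fold change 0.33, adjusted p = 0.393, the authors' deposited table), and the limma difference of 0.37 ± 0.43 turned negative when SmoM2 replicate 1 (-0.21) or WT replicate 2 (-0.073) was left out. The ratio of mt-Co1 to mt-Co2, both without their chromosome 1 copies, was 20.2 and 15.4 in SmoM2 and 38.5 and 30.02 in WT. With its copy added, weighted by length, mt-Co1 had 18909 and 16366 in SmoM2 and 23901 and 23483 in WT. mt-Co2 with its copy had 19231 and 15156 in SmoM2 and 26443 and 23933 in WT. The levels with copies thus lay near each other in each sample, unlike those of the genes alone.

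**Figure D1:**
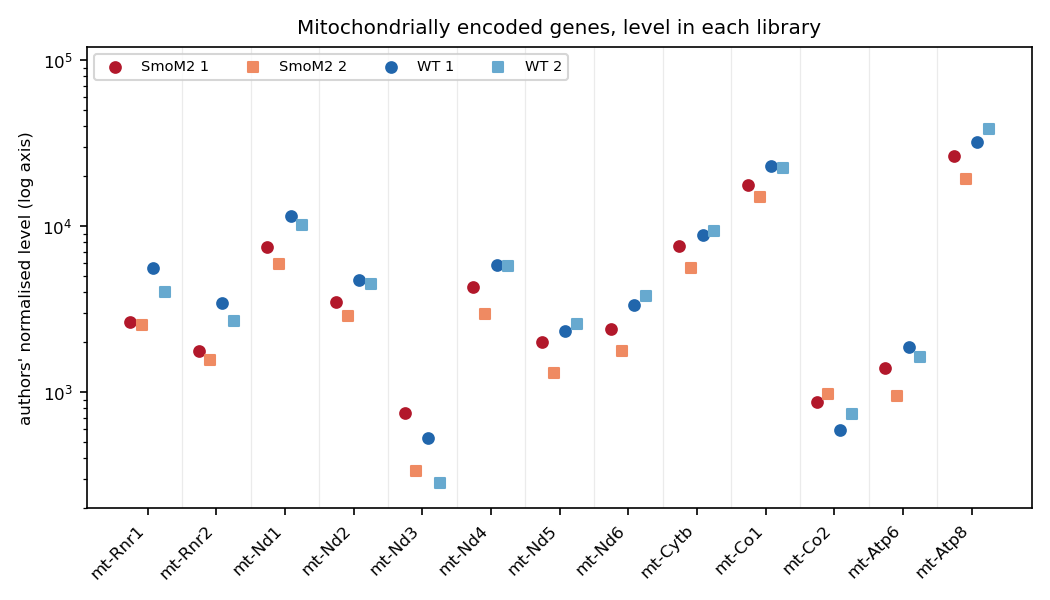
Level of each mitochondrially encoded gene (authors' normalised level, log axis) in the 4 libraries, 1 point per library. Both SmoM2 points lie below both WT points for 11 genes and above them for mt-Co2, while for mt-Nd3 the points of the groups interleave.

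mt-Co2 and mt-Nd3 each have a chromosome 1 copy with a row, and for both the copy held most of the level. Gm28661, the copy of mt-Co2, had levels of 18438 and 14246 in SmoM2 and 25962 and 23291 in WT. It fell (log2 fold change -0.66, adjusted p = 1.59e-18, the authors' deposited table). Joined with mt-Co2, weighted by length, the level was 19231 and 15156 in SmoM2 and 26443 and 23933 in WT. The limma difference was -0.56 ± 0.18, and the direction of mt-Co2 turned. mt-Co2 made up 4.54% and 6.42% of the joined level in SmoM2 and 2.25% and 3.11% in WT. A larger share of the joined level thus stood under mt-Co2 in both SmoM2 samples.

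Gm28438, the copy of mt-Nd3, had levels of 5194 and 4988 in SmoM2 and 8677 and 7739 in WT. It fell (log2 fold change -0.77, adjusted p = 9.49e-12, the authors' deposited table). The joined level of mt-Nd3 and Gm28438 was 5902 and 5280 in SmoM2 and 9131 and 7957 in WT, a limma difference of -0.61 ± 0.14. The groups of the joined level did not overlap, unlike those of mt-Nd3 alone, whose share of it was 12.7% and 6.35% in SmoM2 and 5.79% and 3.58% in WT.

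Gm10925, the copy of mt-Atp6, had levels of 10279 and 6977 in SmoM2 and 13779 and 14655 in WT and fell (log2 fold change -0.78, adjusted p = 1.60e-22, the authors' deposited table). Here the share of mt-Atp6 in the joined level was alike, at 11.96% and 12.02% in SmoM2 and 12.1% and 10.1% in WT, and the joined limma difference was -0.73 ± 0.21. For mt-Co1 the mitochondrial gene held most of the joined level, from 91.3% to 95.7%, while its partial copy Gm29216 had levels of 3990 and 4457 in SmoM2 and 3196 and 3646 in WT and did not pass in the authors' deposited table (log2 fold change 0.23, adjusted p = 0.204). The joined difference of mt-Co1 was -0.43 ± 0.16. Gm28437 and Gm10222, copies of the mitochondrial genes mt-Co3 and mt-Nd4l that were not analysed, fell (log2 fold changes -0.53 and -0.51, adjusted p = 7.21e-12 and 8.45e-05, the authors' deposited table). How the counting divided reads between a gene and its copy cannot be told from the levels, and these 4 members are uncertain for that reason. So is mt-Nd4, which Gm28439 on chromosome 1 matches over 876 bases with 0 mismatches. No level of that copy was analysed here. The 204 bases of mt-Atp8 are fewer than the 250 matching bases required, so no copy of it could be found.

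**Figure D2:**
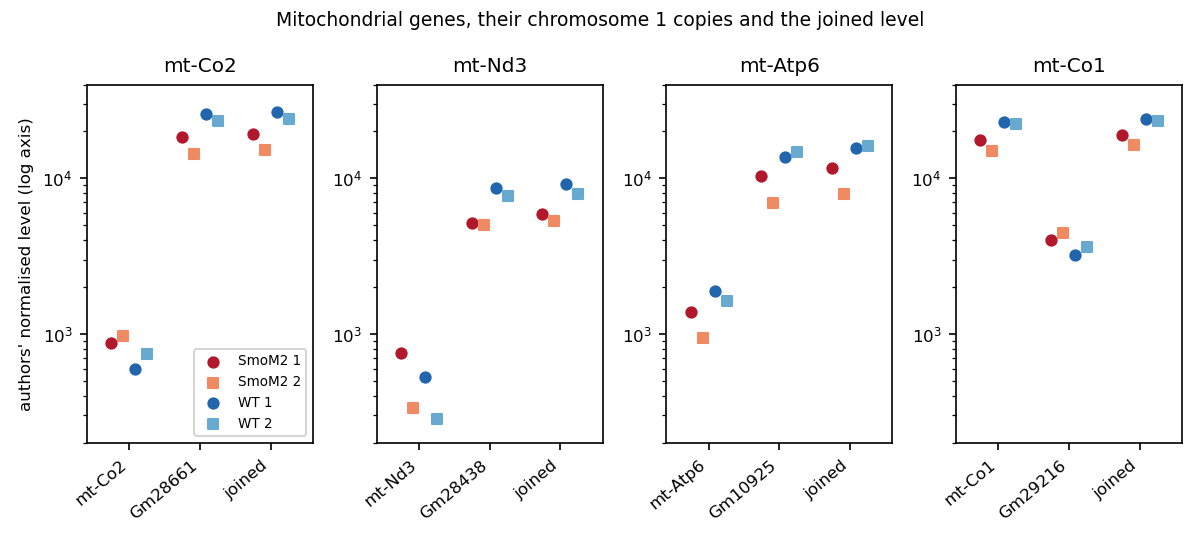
Levels (authors' normalised level, log axis) of 4 mitochondrial genes, of the near-identical chromosome 1 copy and of their length-weighted joined level, 1 point per library. For mt-Co2 the 2 SmoM2 points are above the WT points in the gene, at 874 and 973, and below them in the joined level, at 19231 and 15156.

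Summed over the 13 members, the level was 78827 and 60994 in SmoM2 and 103479 and 106214 in WT. That was 16.0% and 13.004% of the level of all listed genes in SmoM2 and 20.3% and 20.7% in WT. With the chromosome 1 copies added the shares were 28.9% and 23.7% in SmoM2 and 36.6% and 36.3% in WT. Both shares were lower in each SmoM2 sample than in either WT sample. No exact permutation test of 2 samples against 2 can give a two-sided p below 0.333, and none was used. These shares are of the listed genes, not of a library.

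The 22 nuclear members summed to 8838 and 8536 in SmoM2 and 9537 and 9447 in WT, or 1.80% and 1.82% against 1.88% and 1.84% of the listed level. The mitochondrial sum was 8.92 and 7.15 times the nuclear sum in SmoM2 and 10.8 and 11.2 times in WT. This ratio is free of library scaling. Its log2 difference was 0.47 towards nuclear in SmoM2, and from 0.31 to 0.63 with any 1 sample left out. With the chromosome 1 copies added to the mitochondrial sum this difference was 0.44. Both sums hold only listed genes, which were selected by p, so the ratio is not that of the whole chain.

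**Figure D3:**
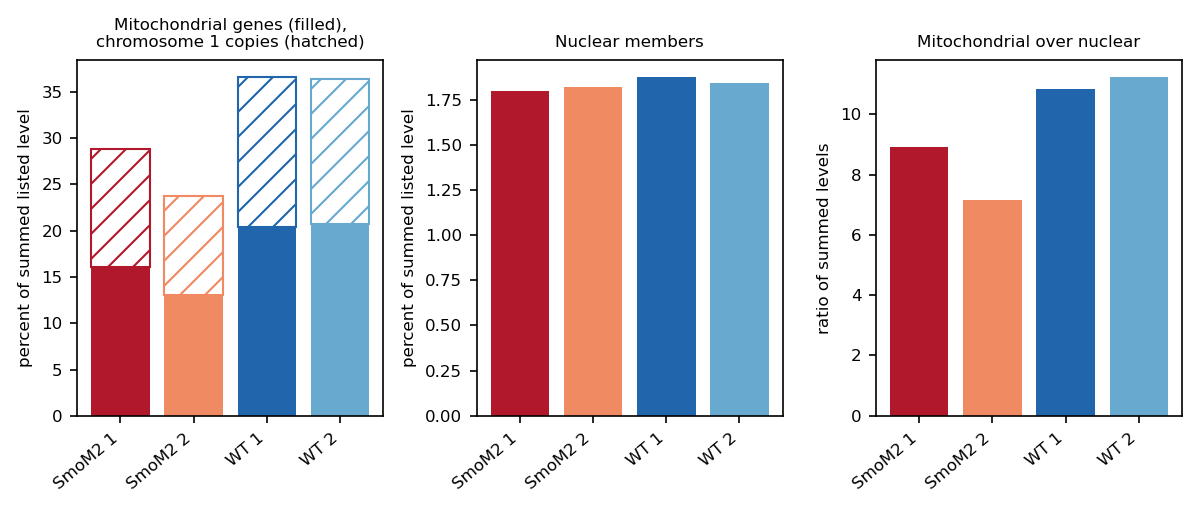
Bars per library: percent of the summed listed level in mitochondrial genes (filled) and their chromosome 1 copies (hatched), percent in the nuclear members, and the ratio of mitochondrial to nuclear summed level. The filled bars are 16.0% and 13.004% in SmoM2 and 20.3% and 20.7% in WT, while the nuclear bars are between 1.80% and 1.88%.

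Nuclear members differed less. 18 of the 22 were lower and 4 higher, and 3 were called: Uqcrb and Ndufb1 fell and Atp5d rose. Against 38.9% called among all listed genes, 19 of the 22 did not pass. Their log2 fold changes in the authors' deposited table ran from -0.49 to 1.06 (median -0.24). Of the 4845 listed genes above the level minimum, 47.5% had a negative log2 fold change. Groups did not overlap for 19 of the 22, a share near the 85.0% of all listed genes. Many subunit transcripts are short. Among the 175 listed genes under 800 bases 45.1% were lower and the median log2 fold change was 0.26, while 8 of the 10 nuclear members of that length were lower and their median was -0.26.

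**Figure D4:**
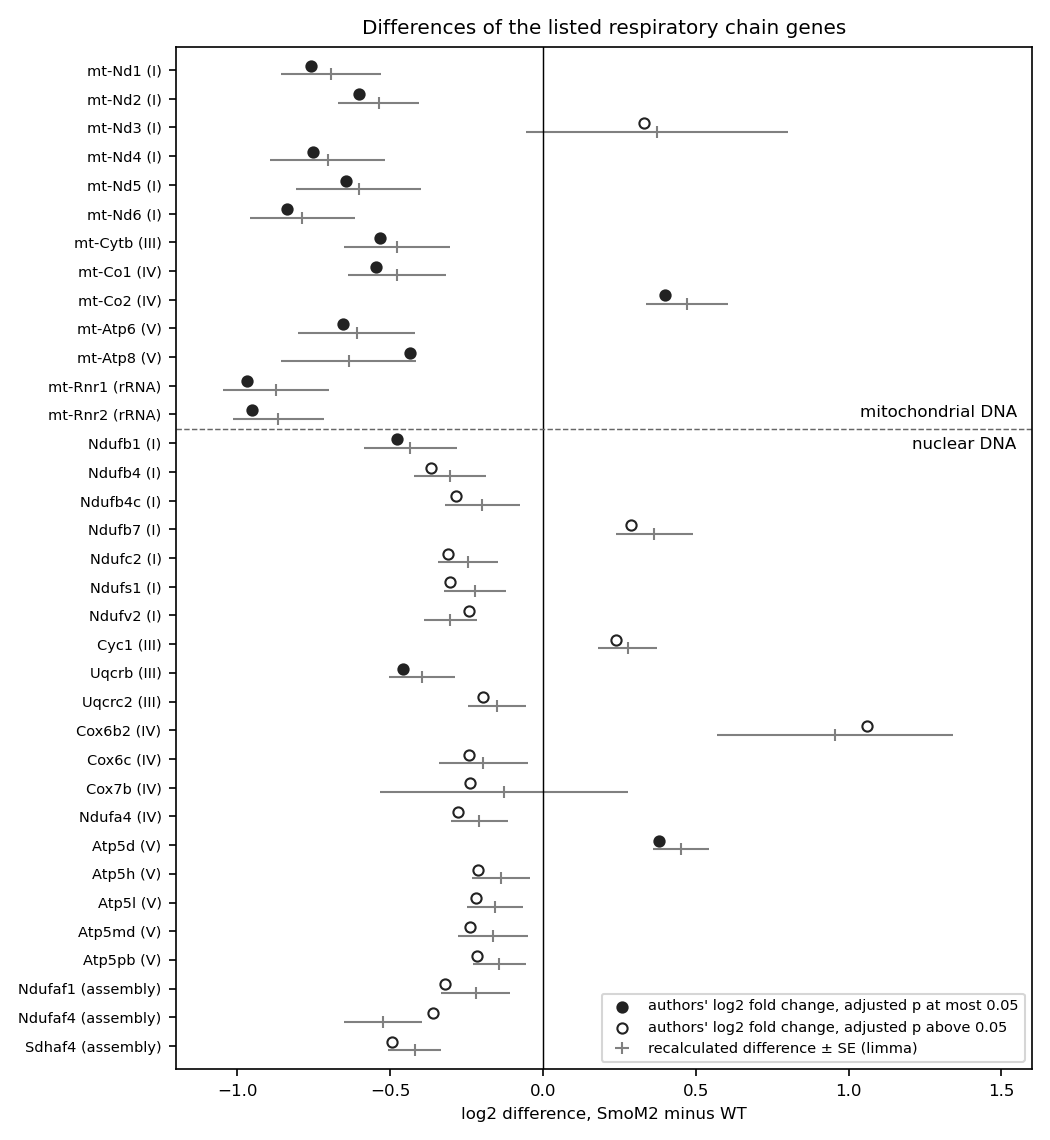
Log2 difference of SmoM2 minus WT for the 35 members, with the complex in brackets. Circles are the authors' log2 fold changes, filled where adjusted p is 0.05 or less, and ticks with bars are limma differences with their SE. Filled circles number 12 of 13 above the dashed line and 3 of 22 below it. Among the listed genes whose mean level reached 1, 38.9% had an adjusted p of 0.05 or less.

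In complex I, 7 nuclear members had a row, 6 of them lower. Ndufb1 (chr12:101968090-101977068, minus strand) is an accessory subunit of the membrane arm in RefSeq's naming, which lists it as protein-coding, while GENCODE M21 types it as a non-coding RNA under its -ps name. The row was kept because the table names it Ndufb1. It had levels of 74.9 and 88.3 in SmoM2 and 125 and 96.9 in WT. It fell (log2 fold change -0.48, adjusted p = 0.0146, the authors' deposited table), and the limma difference was -0.43 ± 0.15, or -0.25 without WT replicate 1. Ndufs1, the largest subunit and a carrier of iron-sulfur clusters, had 102 and 118 in SmoM2 and 127 and 128 in WT. It did not pass (log2 fold change -0.30, adjusted p = 0.0788, the authors' deposited table). Ndufv2, an iron-sulfur subunit of the NADH-oxidising module, had 187 and 191 in SmoM2 and 242 and 225 in WT (adjusted p = 0.318, the authors' deposited table). Ndufc2, a membrane-arm subunit, had 188 and 165 in SmoM2 and 208 and 210 in WT (adjusted p = 0.129 in the same table). These 3 did not pass, and their groups did not overlap, as for 85.0% of listed genes. Ndufb7, a subunit on the intermembrane side of the membrane arm, went against the others of the complex, with 272 and 261 in SmoM2 and 232 and 184 in WT. It did not pass either (log2 fold change 0.29, adjusted p = 0.185, the authors' deposited table).

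Ndufb4, a membrane-arm subunit, and Ndufb4c share 390 bases without a mismatch, which span the whole reading frame of 130 codons with its stop; its first 60 bases are shown as the run in which neither can be told from the other.

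Ndufb4: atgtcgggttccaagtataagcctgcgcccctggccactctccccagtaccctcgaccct

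Ndufb4c, a processed pseudogene in the annotation and the nuclear complex I member of highest level, had levels of 492 and 583 in SmoM2 and 660 and 573 in WT, which overlap. Ndufb4 had 40.1 and 42.1 in SmoM2 and 55.7 and 46.6 in WT. The level under the pseudogene was 12.3 and 13.9 times that of the gene in SmoM2 and 11.9 and 12.3 times in WT. The authors' deposited table gives -0.29 in log2 for Ndufb4c (adjusted p = 0.293) and -0.37 for Ndufb4 (adjusted p = 0.235), and neither passed. Their joined limma difference was -0.22 ± 0.12.

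In complex III, Uqcrb, a small subunit next to the ubiquinone sites (chr13:66900617-66905378, minus strand), had levels of 393 and 333 in SmoM2 and 470 and 483 in WT. It fell (log2 fold change -0.46, adjusted p = 0.00211, the authors' deposited table), and the limma difference was -0.40 ± 0.11. Cyc1, the cytochrome c1 that hands electrons to cytochrome c, differed in the other direction, with 247 and 281 in SmoM2 and 221 and 214 in WT. It did not pass (log2 fold change 0.24, adjusted p = 0.296, the authors' deposited table). Uqcrc2, a core subunit, had 241 and 269 in SmoM2 and 276 and 290 in WT, and did not pass (adjusted p = 0.518, the authors' deposited table). Of the 3 subunits, 2 were lower and 1 higher, each without overlap, as were 85.0% of listed genes.

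None of the 4 nuclear members of complex IV passed. Ndufa4, once assigned to complex I and now placed in complex IV, had levels of 1020 and 944 in SmoM2 and 1122 and 1147 in WT, for which the authors' deposited table gives -0.28 in log2 (adjusted p = 0.128). Cox6c, a small membrane subunit and the highest of the 4, had 1198 and 925 in SmoM2 and 1147 and 1267 in WT, which overlap. Cox7b had 190 and 338 in SmoM2 and 188 and 408 in WT, with both replicates 1 near each other and well below both replicates 2. Its limma difference of -0.13 ± 0.41 turned positive when SmoM2 replicate 1 (0.28) or WT replicate 2 (0.43) was left out. Cox6b2, known as the testis isoform of subunit VIb, was the member of lowest level, with 7.20 and 13.5 in SmoM2 and 3.09 and 6.76 in WT. The authors' deposited table gives it a log2 value of 1.06, the largest of the 35 in size, with adjusted p = 0.482.

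In complex V, Atp5d, the delta subunit of the central stalk of ATP synthase (chr10:80138632-80145818, plus strand), had levels of 624 and 673 in SmoM2 and 486 and 462 in WT. It rose (log2 fold change 0.38, adjusted p = 0.00807, the authors' deposited table), and the limma difference was 0.45 ± 0.091. The other 4 nuclear members of the complex had the opposite direction. They were lower without overlap, which 85.0% of listed genes also lacked. They did not pass, their log2 values lying from -0.24 to -0.21 in the authors' deposited table. Atp5md, a small membrane subunit and the highest of them, had 1683 and 1456 in SmoM2 and 1820 and 1686 in WT. Atp5h and Atp5pb, subunits of the peripheral stalk, had 724 and 697 against 821 and 745, and 327 and 355 against 374 and 378.

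Atp5l, a membrane subunit, had levels of 724 and 698 in SmoM2 and 825 and 762 in WT. Atp5l2-ps matched it over 312 bases with 2 mismatches. No level of that copy was analysed here, and it is not part of the joined level below. Gm10221 matched Atp5l over 309 bases with 0 mismatches from the start codon on. The first 60 of these bases are shown because they stand for both Atp5l and Gm10221.

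Atp5l: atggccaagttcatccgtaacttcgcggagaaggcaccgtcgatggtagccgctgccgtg

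Gm10221 had levels of 579 and 588 in SmoM2 and 431 and 353 in WT, the other direction from Atp5l, and did not pass in the authors' deposited table (log2 fold change 0.51, adjusted p = 0.125). Joined, they had 1053 and 1032 in SmoM2 and 1070 and 962 in WT, which overlap, and the limma difference turned from -0.16 ± 0.092 to 0.039 ± 0.098.

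The 3 assembly factors were lower without overlap, while groups did not overlap for 85.0% of listed genes. None of the 3 passed in the authors' deposited table. Sdhaf4, which helps to assemble complex II, had 60.5 and 60.2 in SmoM2 and 80.0 and 82.2 in WT (log2 fold change -0.49, adjusted p = 0.0547, the authors' deposited table). Ndufaf4 and Ndufaf1, assembly factors of complex I, had 11.5 and 10.9 against 16.9 and 16.0, and 29.7 and 34.0 against 37.2 and 37.1. The authors' deposited table gives them adjusted p = 0.206 and 0.353.

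**Figure D5:**
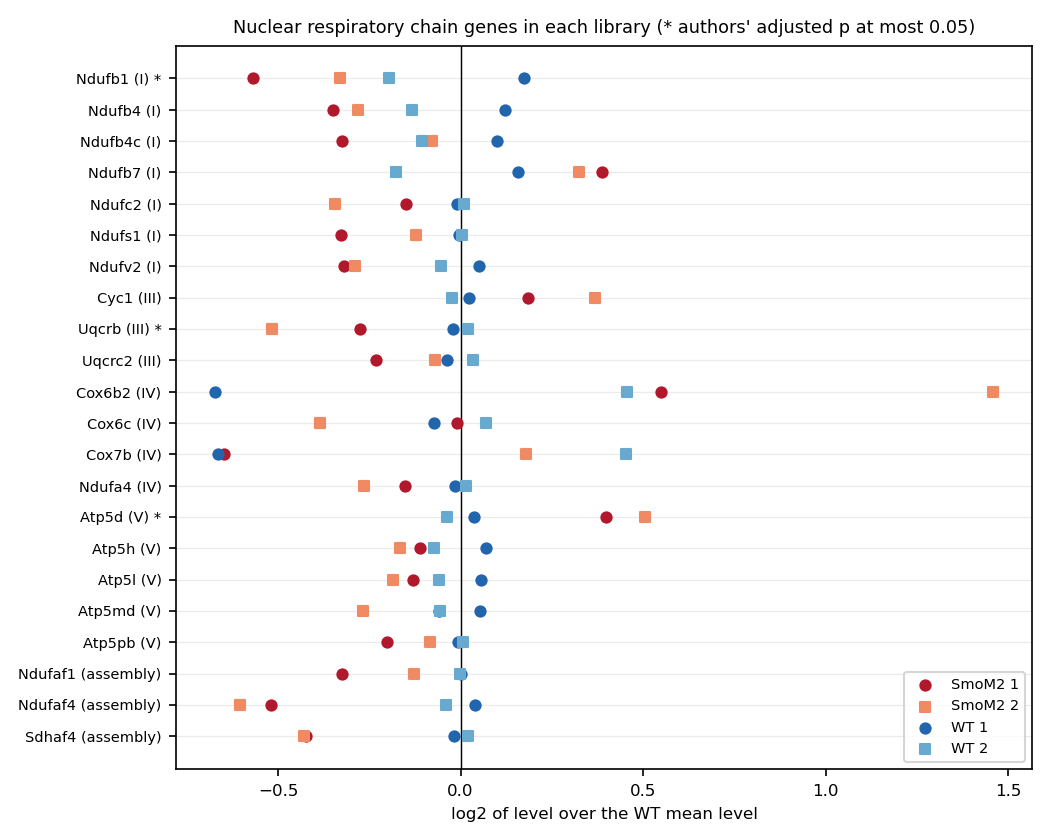
Level of each nuclear member in the 4 libraries as log2 of its ratio to the WT mean, 1 point per library, with an asterisk where the authors' adjusted p is at most 0.05. SmoM2 points lie right of both WT points for Atp5d, Ndufb7, Cyc1 and Cox6b2 and left of them for 15 genes. Groups did not overlap for 85.0% of all listed genes.

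By limma on log2(level + 1), adjusted over 57010 tests, 0 of the 35 members passed at 0.05, against 15 in the authors' deposited table. The lowest adjusted p was 0.268, and 23 members had an unadjusted p under 0.05, as did 55.5% of the 4845 genes. At the adjusted threshold 0.124% of the 4845 passed.

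Promoters of the nuclear members are shown for the motifs by which such genes are commonly described. RefSeq promoters (GRCm38.p6) were matched for 16 of the 22, and the 250 bases before the start were searched on both strands. A gene counted as matched where any of its promoters held the motif. The NRF1 core motif GCGCANGCG occurred in 5, Atp5h, Atp5l, Ndufaf4, Ndufb4 and Sdhaf4, and in 5.91% of 26734 genes. With a further C at its end, the form searched first, it occurred in 3 (Atp5h, Ndufaf4 and Ndufb4) and in 4.27% of these genes. The ETS motif CCGGAAG occurred in 4, Atp5h, Atp5l, Ndufaf1 and Ndufb7, and in 7.88% of the 26734 genes. The YY1 motif AAGATGGCG occurred in 0 of the 16 and in 0.714% of the 26734 genes. Atp5d, Ndufb1 and Uqcrb are not among the genes with a match. For 6 of the 22 members no promoter was matched, so a missing name can also mean that none was searched. Atp5h (chr11:115419920-115420169, minus strand), which like Atp5l holds both motifs, and Ndufaf4 (chr4:24897833-24898082, plus strand) are printed with matches in capitals, which in Ndufaf4 are NRF1 matches on both strands that overlap.

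Atp5h promoter: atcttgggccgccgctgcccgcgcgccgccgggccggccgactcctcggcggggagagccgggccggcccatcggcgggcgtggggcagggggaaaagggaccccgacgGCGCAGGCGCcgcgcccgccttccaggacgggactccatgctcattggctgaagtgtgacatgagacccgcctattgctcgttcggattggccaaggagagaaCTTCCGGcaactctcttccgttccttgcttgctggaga

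Ndufaf4 promoter: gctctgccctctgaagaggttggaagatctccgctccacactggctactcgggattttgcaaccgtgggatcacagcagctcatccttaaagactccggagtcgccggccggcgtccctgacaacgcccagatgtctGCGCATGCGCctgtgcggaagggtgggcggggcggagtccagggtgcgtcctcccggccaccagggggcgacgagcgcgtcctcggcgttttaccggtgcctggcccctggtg

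In the authors' deposited table the log2 value was -0.21 for Atp5h, -0.36 for Ndufaf4 and 0.29 for Ndufb7, which holds an ETS match, and none of the 3 passed.

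Other genes of mitochondrial energy supply were read from lists of 217 genes, 53 of which had a row. 36 were lower and 17 higher, 9 fell and 5 rose, and 39 did not pass, so 26.4% of those with a row were called beside 37.3% of the 5282 listed genes. Their median log2 fold change was -0.26 in the authors' deposited table.

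For the copying and expression of mitochondrial DNA, 7 of 29 genes had a row. Tfb2m, a transcription factor of the mitochondrial promoters, had levels of 15.7 and 15.9 in SmoM2 and 22.7 and 19.9 in WT and fell (log2 fold change -0.46, adjusted p = 0.0372, the authors' deposited table). Top1mt, the mitochondrial topoisomerase, had 11.9 and 10.4 in SmoM2 and 6.96 and 6.33 in WT and rose (0.67, adjusted p = 0.0329, the authors' deposited table). Neither overlapped between groups, and the other 5 did not pass. Of 16 nuclear regulators of respiratory genes, 5 had a row. Myc, a transcription factor of growth genes, had 14.2 and 14.7 in SmoM2 and 7.88 and 9.86 in WT and rose (0.84, adjusted p = 0.000652, the authors' deposited table). Ppargc1a, the coactivator best known for promoting mitochondrial biogenesis, had 10.1 and 10.1 in SmoM2 and 11.98 and 11.8 in WT and did not pass (-0.29, adjusted p = 0.250, the authors' deposited table).

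All 6 of 26 genes of pyruvate entry and the citric acid cycle with a row were lower, and 2 fell. Dld, the dihydrolipoamide dehydrogenase that the pyruvate and 2-oxoglutarate dehydrogenase complexes share, had 80.2 and 77.1 in SmoM2 and 95.1 and 105 in WT (log2 fold change -0.41, adjusted p = 0.00561, the authors' deposited table). Pdp1, the phosphatase that activates pyruvate dehydrogenase, had 32.5 and 34.3 in SmoM2 and 38.8 and 46.8 in WT (-0.48, adjusted p = 0.000956, the authors' deposited table). 4 of 19 genes of electron entry and ubiquinone synthesis had a row and were lower, and Coq10b, a ubiquinone-binding protein, fell from 33.1 and 35.5 in WT to 25.4 and 24.7 in SmoM2 (-0.54, adjusted p = 0.00322, the authors' deposited table). Of 15 genes of ADP, ATP and phosphate transport, 3 had a row. Ak3, the adenylate kinase of the matrix, fell from 55.4 and 54.0 in WT to 40.3 and 43.9 in SmoM2 (-0.48, adjusted p = 0.000865, the authors' deposited table). Slc25a14, an inner-membrane carrier, fell from 45.1 and 51.8 to 34.4 and 41.1 (-0.42, adjusted p = 0.0195, the authors' deposited table).

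Protein import was split, with 5 of its 9 listed genes of 28 higher and 4 lower. Tomm40, the pore of the outer membrane, had 113 and 123 in SmoM2 and 83.6 and 91.0 in WT and rose (log2 fold change 0.36, adjusted p = 0.0299, the authors' deposited table). Timm9, a small chaperone of the space between the membranes, had 67.5 and 63.8 in SmoM2 and 80.1 and 88.6 in WT and fell (-0.54, adjusted p = 0.00241, the authors' deposited table). Timm13, another of these chaperones, had 123 and 130 in SmoM2 and 97.0 and 79.5 in WT and rose (0.36, adjusted p = 0.0426, the authors' deposited table). Of 18 genes of mitochondrial shape, 5 had a row, all lower, and Yme1l1, an inner-membrane protease, fell from 26.6 and 30.9 in WT to 24.7 and 20.4 in SmoM2 (-0.41, adjusted p = 0.00864, the authors' deposited table). In peroxide and superoxide removal, Gpx1, a glutathione peroxidase, rose, with 175 and 171 in SmoM2 and 143 and 115 in WT (0.34, adjusted p = 0.0486, the authors' deposited table). Sod2, the matrix superoxide dismutase, was called lower in the authors' deposited table (-0.38, adjusted p = 0.00813), whereas its levels of 133 and 121 in SmoM2 and 100 and 129 in WT overlap and have the higher mean in SmoM2. Of 21 glycolysis genes 5 had a row, 2 higher and 3 lower, and of 35 further assembly factors 7 had a row, 3 higher and 4 lower; none of these 12 passed.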

How the data were processed

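RNA-seq of 4 samples, 2 per group, was used. The submitters' processing notes name RSEM, DESeq2 and GRCm38.p6 without roles or versions. The authors' deposited table gives, for 5282 genes at an unadjusted p-value of at most 0.05, a normalised level per sample (taken as scaled for length), the SmoM2 to WT fold change (a ratio), this value as log2, and p-values before and after adjustment. The series text speaks of a log2 fold change of at least 1, but 775 listed genes reach that size. Read counts were not used here, so depth and its error are unknown.

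A gene counts as called where that table's adjusted p is 0.05 or less. limma 3.58.1 (R 4.3.3) with a trend was run on log2(level + 1) over the 4845 genes whose mean level reached 1, with Benjamini-Hochberg adjustment over 57010 tests, the number the authors' adjusted p implies. It recalculates a list selected by p and understates differences of low genes. The simulated data for SmoM2 against WT had 4845 genes, 200 of them changed, and the same noise set for each gene. There the adjustment was over the 4845 genes and not over 57010 tests. In that setting limma recovered 64.2% of changes of 0.5, with 9 false of 185 calls. On the authors' levels it called 6 of the 4845 genes, and the share of changes it recovers there was not tested. Copies were found with blastn 2.17.0 against GENCODE M21 transcripts.

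Named were every mitochondrial member, up to 4 called members without overlap and the highest member of each complex, paralogue isoforms, members against their complex, and up to 2 called genes per list; others were named after their values were seen. The members and lists were chosen with earlier results of these data known. Alternatives were pseudocounts of 0.1 and 5, no level filter or a minimum of 5, quantile normalization, equal medians, totals without mitochondrial genes, an adjusted p of 0.01, a replicate block and each sample left out. Totals without mitochondrial genes and copies, and joined copies, were chosen after seeing the data.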

Additional observations from a re-analysis of the deposited data

How the results depend on the processing

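Values are limma log2 differences, SmoM2 minus WT. The level filters and the replicate block leave each member's difference unchanged by construction. Joined copies could change only members that have a copy. Of 490 combinations of a member and an alternative, these included, 480 kept their direction, mt-Atp8 came to 0 with quantile normalization, and 9 turned. These 9 were mt-Nd3 (-0.21 and -0.073 in a range of -0.21 to 0.95 with each sample left out, and -0.61 with its copy joined), mt-Cytb (0.073), mt-Co1 (0.047), mt-Co2 (joined, -0.56), Cox7b (0.28 and 0.43 in a range of -0.68 to 0.43) and Atp5l (joined, 0.039). The cause was not tested beyond what the report states. The median of the nuclear members was -0.20. It was -0.35 with quantile normalization, -0.31 with equal medians, -0.21 with totals without mitochondrial genes, -0.32 with copies left out of the totals too, and -0.22 to -0.17 with each sample left out. The scalings also moved the median of all genes, by -0.13, -0.10 and -0.12 (quantile, equal medians, totals without genes and copies), so the nuclear members moved about as far as the median. The median of the mitochondrial members was -0.61, or -0.32 with quantile normalization and -0.87 to -0.40 with each sample left out. The difference in mitochondrial share was -7.53 to -4.49 percentage points.

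By complex, quantile normalization, equal medians and totals without mitochondrial genes and copies gave, in this order, -0.37, -0.36 and -0.37 for nuclear complex I (-0.25 otherwise), -0.22, -0.26 and -0.27 for nuclear III (-0.15), -0.33, -0.27 and -0.29 for nuclear IV (-0.16), -0.32, -0.25 and -0.27 for nuclear V (-0.14), -0.55, -0.53 and -0.54 for assembly (-0.42, and -0.40 with a pseudocount of 5) and 0.16, -0.12 and -0.13 for mitochondrial IV, where mt-Co1 and mt-Co2 offset each other and joined copies gave -0.49. Quantile normalization gave -0.39 for mitochondrial I (-0.65), 0.073 for mitochondrial III (-0.48) and -0.38 for mitochondrial V (-0.62). With each sample left out the ranges were -0.89 to -0.42 for mitochondrial I, -0.69 to -0.26 for mitochondrial III, -0.88 to -0.37 for mitochondrial V, -0.23 to -0.068 for nuclear III, -0.25 to 0.15 for nuclear IV (0.010 without SmoM2 replicate 1, 0.15 without WT replicate 2), -0.075 to 0.069 for mitochondrial IV (0.018 without SmoM2 replicate 2, 0.069 without WT replicate 2), -0.21 to -0.10 for nuclear V and -0.44 to -0.40 for assembly.

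Of 2 nuclear members called lower, 1 passed at an adjusted p of 0.01. By limma the counts of 11 and 2 called lower and of 1 and 1 called higher were 0. With the replicate block limma called 20 of the 4845 genes in place of 6 and 0 members, the lowest member's adjusted p being 0.148. Deviations of same-numbered samples correlated at -0.09 over genes, which with 2 samples per group cannot decide whether the samples were paired. With no read counts, counting error could not be set beside any difference.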
